A study of Mus musculus with 2 samples.

Results

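The respiratory chain was described here through 107 protein-coding genes, taken from the 35275 genes of the deposited count table by their symbols. The symbols were those of complex I (Nduf), complex II (Sdha to Sdhd), complex III (Uqcr and Cyc1), cytochrome c (Cycs), complex IV (Cox4 to Cox8), ATP synthase (Atp5) and the mitochondrially encoded mt-Nd, mt-Co, mt-Atp and mt-Cytb genes. Of the 107 genes, 94 lie in the nucleus and 13 on mitochondrial DNA. Among the nuclear genes 83 encode subunits, 10 are named as factors and 1 is Cycs.

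The cells were TEa cells, CD4 T cells of C57BL/6 strain with a transgenic receptor for a peptide of the I-E alpha chain, sorted from spleen. In the effector group they had been transferred to wild-type C57BL/6 hosts that carried a Balb/c skin transplant. In the exhausted group CB6F1 mice, the F1 cross of both strains, were the hosts, and the label names no transplant. Host strain, transplant and the amount of antigen differ together, so their parts in any difference cannot be told apart. The sources used here give neither the age of the mice nor the time after transfer, nor how many mice supplied the cells. Each group held 1 library, so no value has a replicate check, no test was possible and all intervals cover counting error only. In bulk RNA, a difference in the mix of cells and a difference in RNA per cell cannot be told apart.

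The electron transport chain passes electrons from NADH and succinate to oxygen through complexes I to IV and pumps protons across the inner mitochondrial membrane. ATP synthase, complex V, uses the returning protons to make ATP. Complexes I, III, IV and V are built from subunits of both genomes, whereas complex II is wholly nuclear. T cells raise respiration on activation and in memory states, and loss of mitochondrial function has been described in chronically stimulated T cells.

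The effector library held 7844445 counted reads and the exhausted one 8508129. All 9 markers of CD4 T cells were measured, and by the 25% rule defined below 5 were higher and 2 lower in the exhausted library. Cd4 had 9272 and 15463 reads (1.54-fold higher), Trac, the receptor alpha constant segment, 22526 and 11561 (2.11-fold lower). Cd8a, Ms4a1 and Siglech had 0 reads in both libraries. Summed reads of the lists for other cells were 91 and 209 for myeloid cells (of which Itgam had 22 and 183), 30 and 37 for dendritic cells, 10 and 3 for platelets, 41 and 229 for NK cells and 114 and 15 for erythroid cells. The B cell list held 7561 and 3871 reads, nearly all of Ighm (7540 and 3851), and CD8 T cells had 164 and 81, all of Cd8b1. The part of such cells in the results below was not tested.

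The mitochondrial genes need a look at their sequence first, because part of mouse mitochondrial DNA has a near-identical copy in the nuclear genome. The table lists 7 pseudogenes of that copy, most under clone-based symbols, side by side on chromosome 1 (mm10, between 24611535 and 24616197, minus strand). Their GENCODE M21 transcripts were aligned without gaps to the mitochondrial genes. The copy Gm28437 equalled mt-Co3 at 783 of 783 aligned bases, Gm10925 equalled mt-Atp6 at 678 of 678, and Gm28661 equalled mt-Co2 at 681 of 681. Gm28438 differed from mt-Nd3 at 1 of 345 bases, T3C counted from the first base of mt-Nd3. The first 60 bases of 2 such pairs are shown because a read of a stretch without a difference cannot be placed, while in the second pair a read that covers base 3 can be told apart. They are written 5′ to 3′ from the GENCODE transcripts, in lower case, with capitals at the base that differs.
mt-Co3: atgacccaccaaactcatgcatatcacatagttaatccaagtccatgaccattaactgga
Gm28437: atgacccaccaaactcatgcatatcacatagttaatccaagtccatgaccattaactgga
mt-Nd3: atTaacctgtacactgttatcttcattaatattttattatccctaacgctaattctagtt
Gm28438: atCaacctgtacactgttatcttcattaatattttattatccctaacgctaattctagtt

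Genes copied in full had few reads in both libraries. As levels in RPKM, reads per kilobase of the gene length in the table scaled to the counted reads of the library, mt-Co1 stood at 998 in the effector and 1413 in the exhausted library, and mt-Cytb at 876 and 1355. The fully copied mt-Co2, mt-Atp6, mt-Co3 and mt-Nd3 stood at 24.6 and 35.9, 31.8 and 40.04, 37.7 and 65.4, and 16.9 and 33.8. The share of their 50-base stretches that also occur in another annotated transcript was 100, 99.5, 99.9 and 98.0%. For mt-Nd4l, equal to Gm10222 at 294 of 294 aligned bases, the share was 98.8% and the level 2.6 and 1.6. That share was 51.1% for mt-Co1, 62.2% for mt-Nd4, 8.19% for mt-Nd2, 7.61% for mt-Nd5 and 0% for mt-Nd1, mt-Nd6 and mt-Cytb. It was also 0% for mt-Atp8, which had only 3 and 5 reads, so low reads did not go with this share in every gene. The copies themselves held reads, for example 268 and 460 for Gm28437 beside 232 and 436 for mt-Co3. How shared reads were counted is not given in the sources used here, so levels of the copied genes are uncertain and the order of levels among mitochondrial genes was not read. Each ratio of a single gene below compares the reads counted for that gene between the libraries. Reads of the copies were added to their genes as a check, given below. Beyond that, whether the counting of shared reads affected the ratios of the copied genes was not tested. Sums over the mitochondrial genes include the copied genes.

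**Figure D1:**
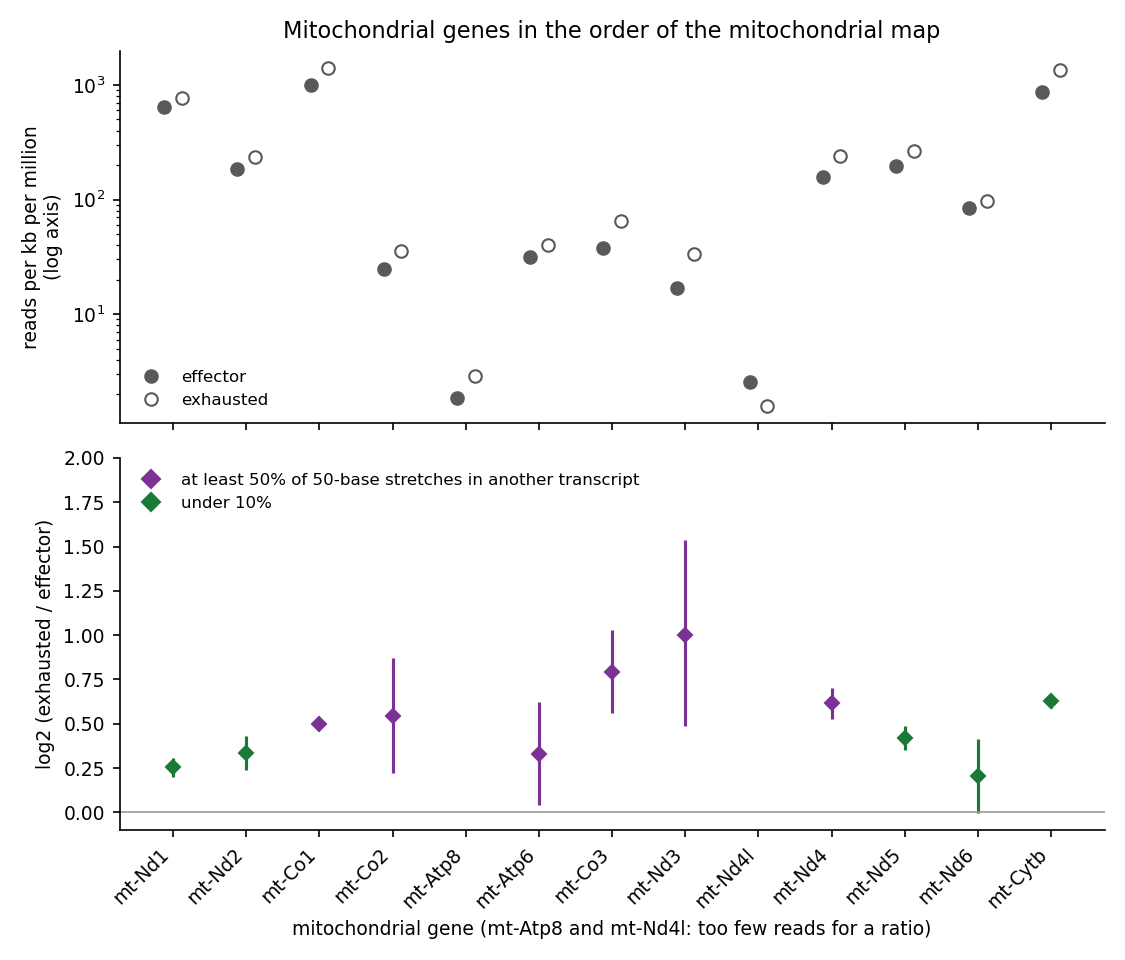
Level of the 13 mitochondrial genes in RPKM (upper panel, log axis) and log2 ratio of exhausted to effector with its 95% counting interval (lower panel, 11 measured genes), in map order. Purple genes share at least 50% of their 50-base stretches with another transcript and green genes under 10%. All 11 ratios lie above 0, from 0.20 for mt-Nd6 to 1.003 for mt-Nd3.

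Of the 107 genes, 97 were measured, meaning that they had at least 50 reads over both libraries. The 10 others were 7 tissue-restricted isoforms of complex IV, Ndufa4l2, mt-Atp8 (3 and 5 reads) and mt-Nd4l (6 and 4 reads). Ratios below are exhausted over effector after scaling with the trimmed mean of M-values. Only mt-Nd3 reached 2-fold with an interval that excluded equality, and it no longer did with a prior count of 2, while 6.62% of the 9999 measured genes were higher and 7.09% lower by that rule. Since most ratios here were small, a second rule is used below, called the 25% rule. It asks for at least 25% more scaled reads in one library than in the other, with an interval that excludes equality. By it 14 of the 97 genes were higher in the exhausted library, against 22.9% of all measured genes, and 18 were lower, against 23.3%. Both shares lie below those of all measured genes. Among the 80 members with at least 500 reads, 10 were higher and 16 lower, against 22.0% and 21.5% of genes at that depth. The direction differed by genome, as given next.

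**Figure D2:**
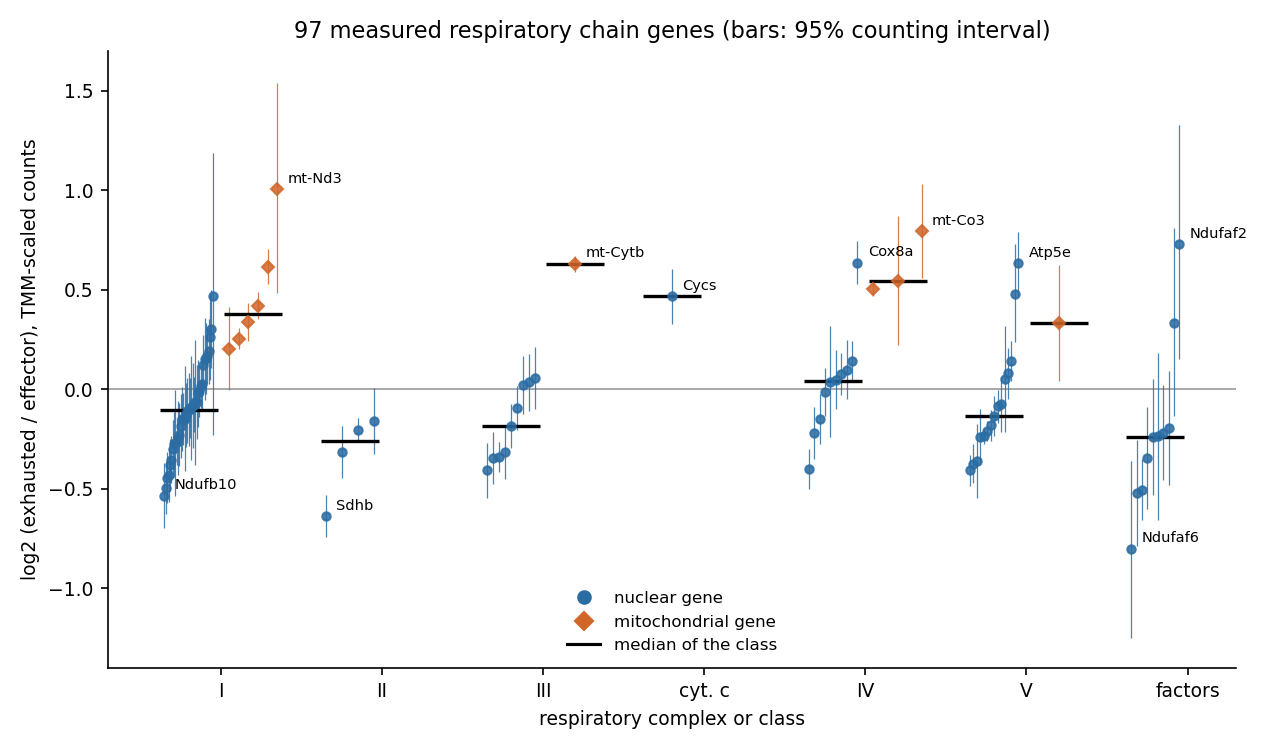
Log2 ratio of exhausted to effector for the 97 measured genes, by complex or class, with 95% counting intervals. The black bars are medians. Mitochondrial genes (diamonds) all lie above 0, and most nuclear genes (circles) lie between -0.5 and 0.3.

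Reads of the 13 mitochondrial genes together numbered 31721 (effector) and 48376 (exhausted). Reads of the 83 nuclear subunit genes numbered 88119 and 85805. Mitochondrial reads thus made up 26.5% of effector subunit reads (exact Clopper-Pearson 95% interval 26.2 to 26.7%) and 36.1% of exhausted ones (35.8 to 36.3%). The sums include the copied genes, whose levels are uncertain, so the size of both shares is uncertain too. Of the mitochondrial reads, mt-Co1 and mt-Cytb held 62.9% in the effector and 65.7% in the exhausted library. The median log2 ratio was 0.50 over the 11 measured mitochondrial genes and -0.11 over the 75 measured nuclear subunit genes, beside -0.01 over all measured genes. All 11 mitochondrial ratios were above 0. Of the nuclear ones 24 were above and 51 below.

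**Figure D3:**
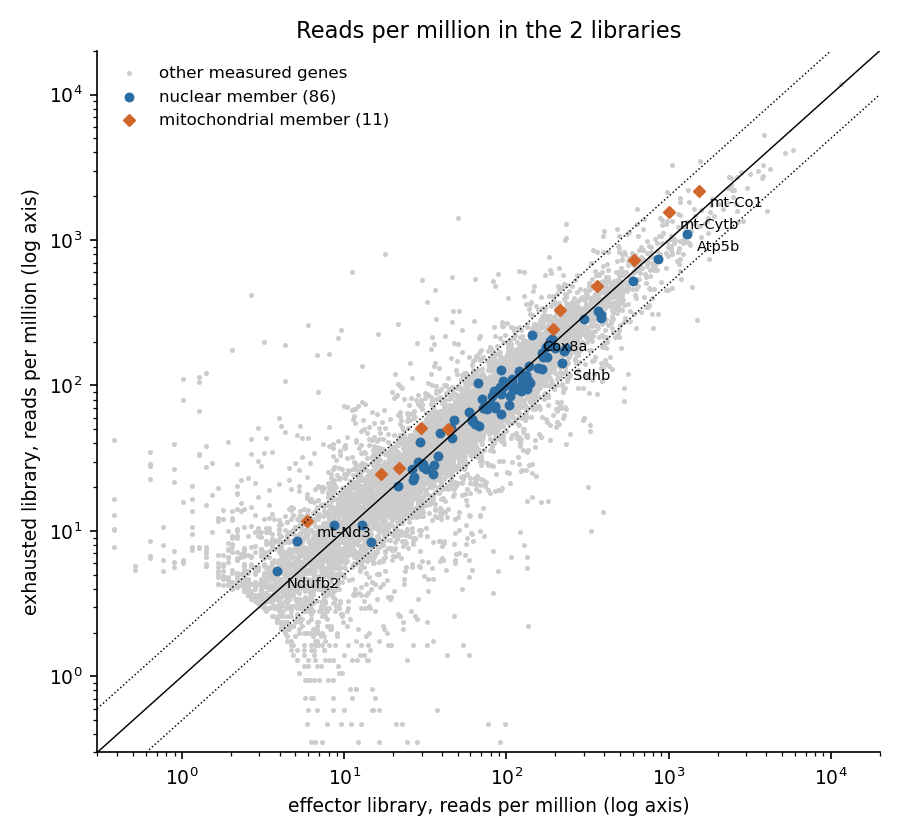
Reads scaled to the library total (CPM) in the effector (x) and exhausted (y) library, both log axes, for all measured genes with reads in both libraries (grey) and the members. The solid line marks equality and the dotted lines 2-fold. Mitochondrial members lie above the line of equality and nuclear members lie close to it.

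Among mitochondrial genes, 9 of the 11 were higher by the 25% rule, against 22.9% of all measured genes. Of these 9, mt-Co1, mt-Co2, mt-Co3, mt-Atp6, mt-Nd3 and mt-Nd4 share at least 50% of their stretches with another transcript. Of mt-Nd1, mt-Nd6 and mt-Cytb, which share none, only mt-Cytb was higher by the rule. The gene of cytochrome b, mt-Cytb, the catalytic subunit of complex III and the most deeply counted gene with no shared stretches, had 7857 effector and 13188 exhausted reads. It was 1.55-fold higher (1.504 to 1.591). The genes of the catalytic core of complex IV were higher by 1.42-fold for mt-Co1 (12098 and 18577 reads, 1.38 to 1.45), 1.46-fold for mt-Co2 (132 and 209, 1.17 to 1.83) and 1.73-fold for mt-Co3 (232 and 436, 1.47 to 2.04). In ATP synthase, mt-Atp6, part of its proton channel, had 170 and 232 reads (1.26-fold, 1.03 to 1.54).

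The mitochondrial genes of complex I, which form its proton-pumping membrane arm, covered a wider range. The ratio was 2.004-fold for mt-Nd3 (46 and 100 reads, 1.40 to 2.91), 1.53-fold for mt-Nd4 (1685 and 2799, 1.44 to 1.63), 1.34-fold for mt-Nd5 (2817 and 4089, 1.28 to 1.40) and 1.26-fold for mt-Nd2 (1512 and 2071, 1.18 to 1.35). Below the rule were mt-Nd1 at 1.19-fold (4819 and 6236, 1.15 to 1.24) and mt-Nd6 at 1.15-fold (344 and 430, 0.998 to 1.332). The intervals of mt-Nd1 and mt-Cytb do not overlap, so genes of the same mitochondrial DNA differed in ratio by more than the counting error these intervals cover. They treat amplified copies as independent reads, and with 1 library per group no wider spread was measured. mt-Nd6 is the only protein gene read from the other strand of mitochondrial DNA and overlaps mt-Nd5, and whether counting used the strand is not given in the sources used here.

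Restricting the mitochondrial genes to the 3 measured ones with under 5% shared stretches (mt-Nd1, mt-Nd6 and mt-Cytb) lowered their median log2 ratio to 0.25, with all 3 still above 0. Adding the reads of the chromosome 1 copies to their genes gave 1.65-fold for mt-Co3 (500 and 896 reads, 1.48 to 1.85), 1.55-fold for mt-Co2 (247 and 415, 1.32 to 1.82) and 1.32-fold for mt-Atp6 (388 and 557, 1.16 to 1.51). It gave 2.06-fold for mt-Nd3 (51 and 114, 1.47 to 2.93), 1.52-fold for mt-Nd4 (1719 and 2830, 1.43 to 1.61) and 1.41-fold for mt-Co1 (12284 and 18806, 1.38 to 1.44). For mt-Nd4l the sums were only 9 and 7 reads.

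Levels of the nuclear subunit genes, in RPKM, ran from 0.875 to 675 with a median of 106 in the effector library. The exhausted library gave 1.21 to 573 with a median of 99.5. Atp5b, the catalytic beta subunit of ATP synthase, was the highest and Ndufb2 the lowest in both. Ndufb2 had only 30 and 45 reads over a listed length of 4371 bases. Its exons overlap Gm42420 on its own strand and Braf and Gm16272 on the other, so its level is uncertain. By complex the medians were 68.3 and 70.9 for complex I, 142 and 99.9 for complex II, 140.3 and 131 for complex III, 179.9 and 173 for complex IV and 142 and 115 for complex V. Genes within a complex thus spanned a wider range than the complexes did. The gene in the middle can differ between the libraries, so these medians describe levels and are not read as change. Change is given below by the ratios of single genes.

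Nuclear subunit genes kept close to equality. Of the 75 measured, 57 (76.0%) lay within 25% of equality, against 49.9% of all measured genes. Since these genes are deeply counted, the same was taken at 500 reads or more, where it held for 51 of 68 subunit genes and 56.5% of 6143 genes. By the 25% rule 3 were higher, against 22.9% of all measured genes, and 14 lower, against 23.3%. Both counts are below those shares.

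The nuclear genes of complex I, which takes electrons from NADH, had a median log2 ratio of -0.10 over 37 measured genes, with 10 above 0 and 27 below. None was higher by the 25% rule and 6 were lower, again a smaller share than the 23.3% of all measured genes. The 7 core genes, which encode the conserved flavin and iron-sulfur arm, had a median of -0.26 and 6 of them lay below 0. Ndufs1, the largest iron-sulfur subunit, had 1057 and 882 reads (1.30-fold lower, 1.19 to 1.42). Ndufv2, an iron-sulfur subunit next to the NADH site, had 1298 and 1102 (1.28-fold lower, 1.18 to 1.39). Ndufs7, near the quinone site, was the core gene above 0, at 752 and 916 reads (1.12-fold, 1.02 to 1.24).

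The 30 measured accessory genes of complex I, which stabilise it and take no part in electron transfer, had a median of -0.10. The lowest were Ndufb10 (724 and 542 reads, 1.45-fold lower, 1.30 to 1.62), Ndufa10 (1043 and 803, 1.41-fold lower, 1.28 to 1.55) and Ndufa9 (1102 and 879, 1.36-fold lower, 1.24 to 1.49). Ndufb9 at 1.35-fold lower, named after its value was seen, shares 23.4% of its 50-base stretches with Gm49356. The highest with at least 200 reads were Ndufa12 (371 and 496 reads, 1.23-fold, 1.08 to 1.41), Ndufa5 (307 and 400, 1.20-fold) and Ndufab1, the mitochondrial acyl carrier protein (556 and 688, 1.14-fold). Ndufa12 shares 26.2% of its stretches with Gm15920. Ndufab1 shares 9.53%, most with Gm4459, and overlaps Gm44986 on the other strand. Ndufa4, listed under complex I by its symbol but known as a complex IV subunit, had 1290 and 1416 reads (1.01-fold, 0.94 to 1.09).

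Of the 7 complex I assembly factors, which help build the enzyme but are not part of it, 6 were below 0 and their median was -0.24. Ndufaf6 was 1.74-fold lower (114 and 71 reads, 1.28 to 2.38) and Ndufaf7 1.43-fold lower (275 and 208, 1.19 to 1.73). Ndufaf2 was 1.66-fold higher on few reads (40 and 72, 1.11 to 2.51), and its exons overlap a gene on the other strand. These 3 were named after their values were seen.

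Complex II, succinate dehydrogenase, belongs to both the citric acid cycle and the chain, and all 4 of its genes lay below 0, with a median of -0.26. Sdhb, the iron-sulfur subunit (ENSMUSG00000009863, mm10 chromosome 4, 140961203 to 140979193, plus strand), had the lowest ratio of all nuclear subunit genes, with 1732 reads in the effector and 1209 in the exhausted library. It was 1.55-fold lower (1.44 to 1.67), shared no stretch with another transcript and overlapped no other exon. The flavoprotein gene Sdha had 4694 and 4418 reads (1.15-fold lower, 1.11 to 1.20), and the membrane anchor genes had 1061 and 925 (Sdhd, 1.24-fold lower, 1.14 to 1.36) and 599 and 582 (Sdhc, 1.12-fold lower, 0.995 to 1.254). Within the complex the interval of Sdhb overlapped none of the other 3, and only Sdhb was lower by the 25% rule.

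In complex III, which passes electrons from ubiquinol to cytochrome c, the nuclear median was -0.18 over 9 genes, against 0.63 for mt-Cytb. The Rieske iron-sulfur gene Uqcrfs1 was 1.33-fold lower (959 and 785 reads, 1.21 to 1.46), the core protein gene Uqcrc1 1.27-fold lower (3018 and 2584, 1.20 to 1.34) and the hinge protein gene Uqcrh 1.27-fold lower (1032 and 880, 1.16 to 1.39). Cyc1, the heme-bearing cytochrome c1, had 1314 and 1335 reads (1.07-fold lower, 0.99 to 1.15). The small subunit genes Uqcr10, Uqcr11 and Uqcrq were at 1.02, 1.04 and 1.01-fold.

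Cycs, the mobile electron carrier that also starts apoptosis when released, had 722 and 1082 reads and was 1.38-fold higher (1.26 to 1.52). It shares 28.5% of its stretches with transcripts of 76 other genes, most with the pseudogene Gm10053, so its count is uncertain.

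Complex IV, cytochrome c oxidase, was the complex whose nuclear median lay above 0, though close to it, at 0.04 over 10 genes. With a minimum of 1 read it was 0.01. Nuclear subunit genes of all complexes with a coding length up to 500 bases had a similar median, 0.02. Cox8a, a small subunit of the membrane part (ENSMUSG00000035885, mm10 chromosome 19, 7215158 to 7217616, minus strand), had 1126 reads in the effector and 1897 in the exhausted library. It was 1.55-fold higher (1.44 to 1.67) and had no shared stretch and no overlapping exon. Cox4i1, the regulatory subunit that binds nucleotides, went the other way with 1785 and 1468 reads (1.32-fold lower, 1.23 to 1.42), and its exons overlap Emc8 on the other strand. The other 8 genes were past the rule in neither direction, from Cox7b at 1.17-fold lower (980 and 913, 1.06 to 1.28) to Cox6b1 at 1.10-fold higher (1446 and 1727, 1.03 to 1.18).

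Several complex IV subunits have tissue-restricted forms, and reads came almost wholly from the ubiquitous ones. Cox4i2, Cox6a2, Cox7b2, Cox8b and Cox8c had 0 reads in both libraries, which allows up to 3 reads in each. Cox7a1 had 1 read in each and Cox6b2 had 3 and 0. The partners Cox6a1 (1373 and 1570 reads), Cox6b1 and Cox7a2 (690 and 774) were within 25% of equality. Cox7a2l, related to Cox7a2 and linked to supercomplexes of complexes III and IV, was 1.42-fold lower (816 and 624, 1.28 to 1.58), and 17.8% of its stretches are shared with Gm6969.

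ATP synthase had a nuclear median of -0.13 over 15 genes, 5 above 0 and 10 below. In its catalytic F1 head, the genes of the alpha, beta, gamma and delta subunits were lower by similar amounts. Their ratios were 0.87 for Atp5a1 (6745 and 6330 reads, 0.84 to 0.90), 0.85 for Atp5b (10144 and 9342, 0.83 to 0.87), 0.88 for Atp5c1 (2881 and 2755, 0.84 to 0.93) and 0.91 for Atp5d (1568 and 1549, 0.85 to 0.98). Atp5e, the epsilon subunit of the same head (ENSMUSG00000016252, mm10 chromosome 2, 174461072 to 174464105, minus strand), stood apart at 527 and 886 reads, 1.55-fold higher (1.39 to 1.73). The 5 proteins stand in the enzyme in fixed numbers, and their messages did not share 1 ratio.

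The membrane ring of ATP synthase is built from identical c subunits encoded by 3 genes. Atp5g2 was 1.40-fold higher (230 and 348 reads, 1.18 to 1.66), whereas Atp5g1 (935 and 1072, 1.06-fold, 0.97 to 1.16) and Atp5g3 (2368 and 2420, 0.94-fold, 0.89 to 0.997) were not past the rule. Per length, Atp5g3 had the highest level of the 3, at 350 and 330 RPKM in the effector and exhausted library, against 25.3 and 26.7 for Atp5g1 and 38.9 and 54.3 for Atp5g2. The gene lengths used were 4715 bases for Atp5g1, 753 for Atp5g2 and 862 for Atp5g3. Atp5g1 had more reads than Atp5g2, so the order of these 2 by RPKM rests on the lengths. For Atp5g2, 38.3% of stretches are shared, most with Gm10175. In the peripheral stalk, which holds the head still, Atp5f1 was 1.33-fold lower (3019 and 2470, 1.26 to 1.40) and Atp5h 1.30-fold lower (1832 and 1533, 1.21 to 1.39). Of their stretches, 37.6% (Atp5f1, most with Gm12231) and 36.9% (Atp5h, most with Gm10250) are shared. Atp5f1 also overlaps Wdr77 and Gm42890 on the other strand. Atp5j, another stalk gene, was at 1492 and 1786 (1.10-fold, 1.03 to 1.18) and overlaps Gabpa on the other strand. Atp5l, with 84.8% of its stretches shared, was 1.28-fold lower (528 and 446).

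Across complexes the ratio of nuclear subunit genes was lower the longer their coding length, a pattern looked for after the values were seen. The 45 measured genes with a coding length up to 500 bases had a median log2 ratio of 0.02, with 23 above 0 and 22 below. The 19 genes of over 500 and up to 1000 bases had a median of -0.18 with 1 above 0, and the 11 genes over 1000 bases a median of -0.28 with 0 above 0. Spearman's rho between coding length and log2 ratio was -0.52 across the 75 genes. It was -0.40 within complex I (37 genes), -0.60 outside it (38 genes) and -0.68 over the 42 genes with under 5% shared stretches. These genes share their libraries, so rho is a description. Across 7067 measured protein-coding genes of the same length range rho was 0.05, and medians of all protein-coding genes in the 3 length classes were -0.06, -0.08 and 0.02. The number of reads also went with the ratio among the 75 genes, with a rho of -0.32. The parts of length and reads were not told apart.

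**Figure D4:**
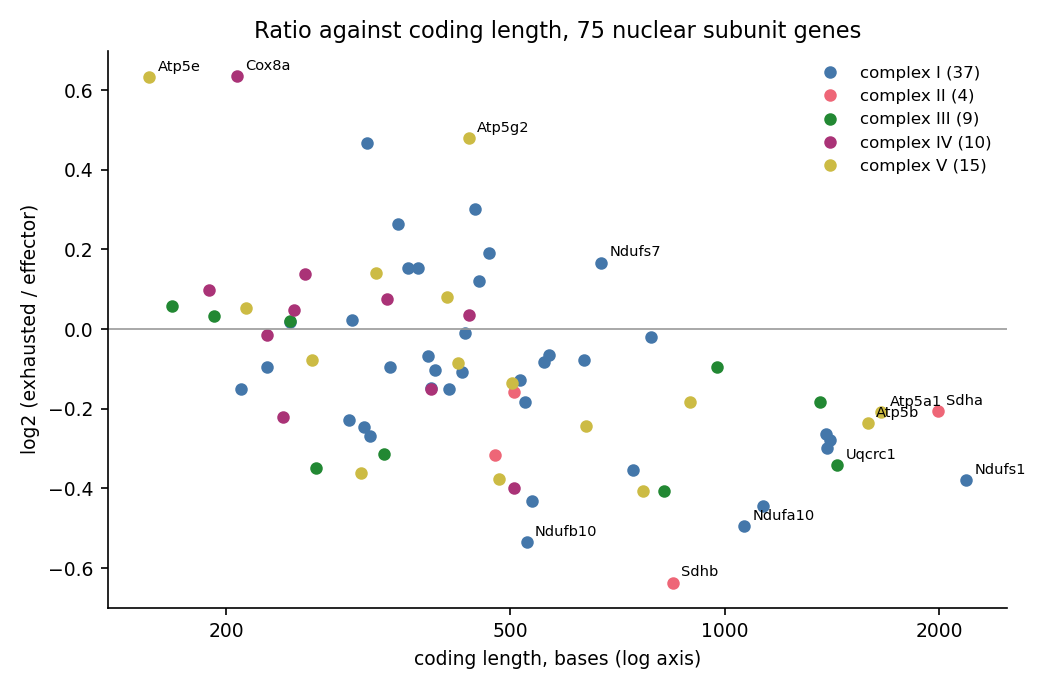
Log2 ratio of exhausted to effector (y) against coding length in bases (x, log axis) for 75 nuclear subunit genes, coloured by complex. All 11 genes over 1000 bases lie below 0, and Cox8a, Atp5e and Atp5g2, highest among genes with at least 200 reads, lie below 500 bases.

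As promoters of respiratory genes are known to hold sites of NRF-1 and of ETS factors such as GABP, the promoter windows were searched. RefSeq (GRCm38.p6) windows from 250 bases before to 50 after the start were found by symbol or synonym for 77 of the 94 nuclear genes. The 10-base palindrome GC followed by GCATGCGC, the core of the NRF-1 site, was in the windows of 7 of the 77 (9.09%) and of 1.07% of all 27025 genes with windows. Its 8-base part GCATGCGC or the reverse complement GCGCATGC, both inside the palindrome and added after the values were seen, was in 16.9% and 3.05%. CCGGAAG or its reverse complement CTTCCGG, an ETS core, was in 22.1% and 9.93%. AAGATGG followed by CGGC, or its reverse complement, a YY1 site, was in 6.49% and 0.755%. The 27025 genes were not limited to measured ones, so whether the members differ in these shares from other expressed genes was not tested. Among measured subunit genes the median log2 ratio was 0.05 for the 5 with the palindrome and -0.10 for the 58 without. It was -0.11 for the 10 with GCATGCGC and -0.09 for the 53 without, so the order differed between the palindrome and its part. For the YY1 site the medians were -0.02 for 4 genes with it and -0.09 for 59 without. For the ETS core the medians were -0.04 for 16 genes with it and -0.10 for 47 without.

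For 3 members, bases before the start are printed 5′ to 3′ on the strand of the gene, with the motif in capitals. They are Cox6a1 (chr5:115349087-115349144, minus strand), the factor gene Ndufaf4 (chr4:24897946-24898003, plus strand) and Cycs (chr6:50566598-50566653, minus strand), shown as examples of the palindrome (Cox6a1, Ndufaf4) and of its 8-base part (Cycs). The Cox6a1 window overlaps an exon of Gm42903 and the Cycs window one of 5430402O13Rik.
Cox6a1: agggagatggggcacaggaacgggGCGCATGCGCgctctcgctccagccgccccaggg
Ndufaf4: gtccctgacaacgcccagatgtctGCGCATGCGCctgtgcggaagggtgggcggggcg
Cycs: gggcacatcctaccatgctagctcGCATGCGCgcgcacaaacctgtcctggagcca
These genes had ratios of 1.05 (Cox6a1), 0.86 (Ndufaf4, 298 and 278 reads) and 1.38 (Cycs). A match of letters is not a site shown to be bound.

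Other genes on which the chain depends were taken as lists, and their counts read against the same 22.9% and 23.3%. Regulators of mitochondrial genes had 4 of 10 measured members higher by the 25% rule, 0 lower and a median log2 ratio of 0.28. Pprc1, a coactivator of the PGC-1 family, had 636 and 1066 reads (1.54-fold, 1.40 to 1.71), and Yy1 had 238 and 331 (1.28-fold, 1.08 to 1.52). Esrra (96 and 195, 1.87-fold) and Ppargc1b (80 and 136, 1.57-fold) completed the 4 and were named after their values were seen. Pprc1 overlaps Ldb1 on the other strand. Ppargc1a had 1 read in each library, and Nrf1, the gene of NRF-1, had 904 and 1013 (1.03-fold, 0.94 to 1.13).

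The list for mitochondrial DNA upkeep and expression had 2 of 26 higher, 7 lower and a median of -0.09. Tfam, which packages mitochondrial DNA and starts its transcription, had 678 and 683 reads (0.93-fold, 0.83 to 1.03), and the mitochondrial RNA polymerase gene Polrmt had 483 and 486 (0.93-fold, 0.82 to 1.05). Both were named after their values were seen. Supv3l1, a helicase of mitochondrial RNA decay, was 1.48-fold lower (238 and 174, 1.22 to 1.81), Mterfd1 1.40-fold and the single-strand binding protein gene Ssbp1 1.33-fold lower. Supv3l1 and Mterfd1 overlap exons of other genes on the other strand. Of 76 genes of the mitochondrial ribosome, which makes the 13 mitochondrial proteins, 4 were higher and 16 lower, with a median of -0.14. Mrpl33 was 1.69-fold lower (840 and 539, 1.52 to 1.89) and Mrpl27 1.56-fold lower. Mrps6 was 2.38-fold higher (302 and 780, 2.08 to 2.73), but shares exons with Slc5a3 on its own strand, so its reads are uncertain.

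The citric acid cycle and pyruvate dehydrogenase, which feed the chain, had 0 of 19 higher, 6 lower and a median of -0.20. Idh2, the NADP-dependent isocitrate dehydrogenase of mitochondria, had 750 and 259 reads and was 3.14-fold lower (2.72 to 3.63). Pdha1, the catalytic subunit of pyruvate dehydrogenase, was 1.74-fold lower (1169 and 731, 1.58 to 1.91) and overlaps Map3k15 on the other strand. Idh3a of the NAD-dependent enzyme was 1.42-fold lower (944 and 719, 1.29 to 1.57).

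Fatty acid oxidation had 2 of 12 higher, 2 lower and a median of 0.01. Cpt1a, which admits long fatty acids to mitochondria, was 2.11-fold higher (941 and 2152, 1.95 to 2.28). Acadm, for medium chains, was 1.74-fold lower (369 and 230, 1.47 to 2.06) and Echs1, the next enzyme, 1.6-fold lower (408 and 277, 1.37 to 1.87). Echs1 overlaps Paox on the other strand.

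Complex IV assembly genes had 3 of 17 higher, 2 lower and a median of 0.19. Cox10, which makes heme for complex IV, was 1.69-fold higher (186 and 341, 1.41 to 2.03), and Surf1 was 1.40-fold lower (410 and 318, 1.21 to 1.62). Both overlap genes on the other strand. Assembly genes of the other complexes had 1 of 20 higher and 4 lower, quinone and other carriers 2 and 5 of 19, protein import 2 and 1 of 21 and mitochondrial dynamics 0 and 0 of 8. Their medians were -0.14, 0.02, -0.04 and -0.08. In these lists Tmem126b was 1.51-fold lower (315 and 227), Etfa 1.43-fold lower (891 and 675), Tomm34 1.44-fold higher (1206 and 1883) and Mfn2 at 1.20-fold (746 and 972). Other genes of the last 3 lists went the other way. Coq9, a quinone gene, was 1.38-fold higher (380 and 567) and overlaps Ciapin1 on the other strand. Tomm7 of import was 1.36-fold lower (483 and 384), and Mff of dynamics 1.15-fold lower (1221 and 1148).

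**Figure D5:**
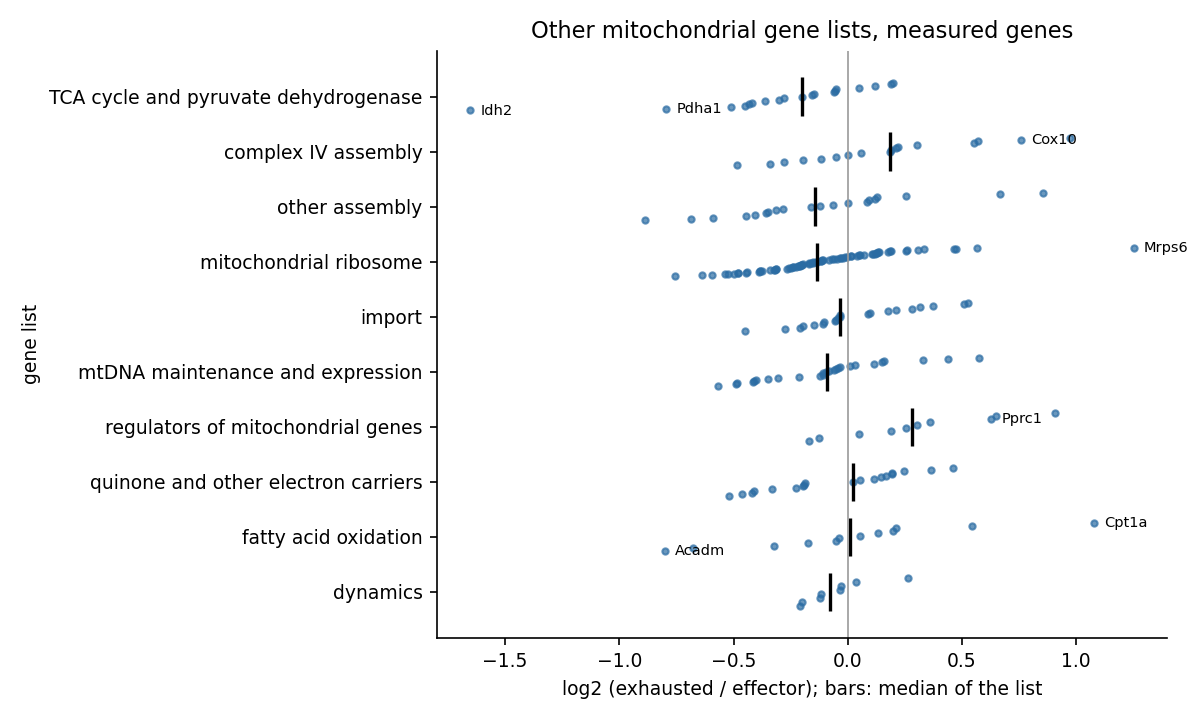
Log2 ratio of exhausted to effector for measured genes of 10 lists, with the median of each list as a bar. List medians lie between -0.20 and 0.28, and Idh2, Mrps6 and Cpt1a are the genes past 2-fold.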

How the data were processed

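Per the labels' protocols, sorted TEa cells were flash frozen, RNA was taken up in Trizol, and a Takara low-input kit was used for the libraries. The values are raw read counts in a single table, as the authors deposited it. The submitters' processing notes name STAR 2.6 and mm10. How reads were counted (program, strand, shared reads) and against which annotation is not given in the sources used here. Columns were mapped to samples by their titles, and gene length in bases is as the authors deposited it.

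Counts were scaled by edgeR 4.0.16 (TMM, R 4.3.3). For each gene, the exact Clopper-Pearson 95% interval (scipy 1.17.1) of the exhausted share of its reads was turned into an interval of the ratio. They treat amplified copies as independent reads. A library at 0 was set to a floor of 3 reads where the other had reads. A gene was measured from 50 reads in all. Calls needed a difference of 2-fold or of 25% with an interval excluding equality. The interval and the 2-fold rule were tested on simulated data with counting noise only, and the 25% rule was not. Levels are RPKM over counted reads. Shared stretches of 50 bases (either strand), exon overlap and coding length came from GENCODE M21 (GRCm38). The list entry Fastkd4 matched no symbol. Some marker genes are not reported here. Promoter windows were matched for 77 of 94 nuclear genes.

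The members, lists and rules were chosen with earlier results of these data known. Named genes were the members past 2-fold, the mitochondrial genes, the 3 highest and 3 lowest nuclear subunit genes per complex with at least 200 reads in the higher library, the isoform families, and from each list up to 3 genes of that depth whose log2 ratio was farthest from 0. Any other gene named was chosen after its values were seen. As alternatives, scaling used size factors of DESeq2 1.42.0, total counts, the upper quartile, or protein-coding or nuclear genes only, and other settings were taken for the read minimum, the floor, the summary and the fold.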

Additional observations from a re-analysis of the deposited data

How the results depend on the processing

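The median log2 ratio stayed below 0 for nuclear subunit genes and above 0 for mitochondrial genes under every scaling, read minimum and summary run. The count of members past 2-fold was 1, 0 with a minimum of 500 reads or a prior count of 2, and 9 at 1.5-fold. The count lower by the 25% rule went from 18 to 38 with no minimum fold, and the count higher from 14 to 21. Among members with under 5% shared stretches, an alternative added after seeing the data, the mitochondrial median was 0.254 and its difference from the nuclear median 0.397. Only 3 mitochondrial genes remain there, against 0.501 and 0.609 over all. The other 101 alternative values of these summaries moved by less than the median half-width of the counting intervals of the genes behind them, or by at most 1.5 times for counts. All 240 alternative values of single genes moved by less than the half-width of the gene's own interval. Removing 1 library was impossible, as each group has 1. No paired analysis was possible because each group holds 1 library. For mt-Atp8, mt-Nd4l, Ndufa4l2 and the tissue isoforms, reads were too few for a ratio. Of the stretches of mt-Nd4l, 98.8% are shared. Whether depth, low expression or the counting of shared reads set these low counts was not tested.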
